A study of Mus musculus with 8 samples.

Results

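Brown adipose tissue and quadriceps muscle were compared after cold exposure, across all genes that the arrays detected. The members were chosen by sample: the 2 arrays of brown fat and the 2 arrays of muscle from mice placed at 4 °C for 4 h, which are 4 of the 8 arrays of the series. The mice were C57BL/6J, with no genetic change named in the labels. All were kept on chow, and their age and sex are not given. Those in the cold had eaten freely overnight and then had no food or bedding during the exposure. The other 4 arrays are brown fat and muscle at room temperature, 2 each, and whether these mice also went without food is not stated. The RNA was measured on Illumina bead arrays of 1 colour and 24607 probes. The labels do not say whether replicates are separate mice. Every p-value therefore reflects only how far these samples lie apart, possibly for technical reasons, and whether the brown fat and muscle arrays share mice is not given either.

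Brown fat makes heat. Noradrenaline released by sympathetic nerves raises cyclic AMP in the brown adipocyte, stored triglyceride is broken down, and the fatty acids both fuel and activate uncoupling protein 1 (Ucp1), which lets protons back into the mitochondrial matrix without making ATP. Skeletal muscle answers cold by shivering, in which myosin and the sarcoplasmic calcium pumps use ATP made from glycogen, glucose and fat. Both tissues arise from related embryonic precursors and both are dense in mitochondria, and the comparison asks which genes set them apart while both are at work in the cold.

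The labelled tissues were first checked against their markers, and the replicates differed in the markers of the other tissue. Levels are normalized intensities on the log2 scale, given for replicate 1 and then replicate 2. The 7 skeletal muscle markers tested had a median of 6.11 on brown fat replicate 1 but 13.69 on brown fat replicate 2, against 14.61 on both muscle arrays. Muscle markers were thus high on brown fat replicate 2, as they were on both brown fat arrays at room temperature (13.46 and 13.67). The 8 brown fat markers had medians of 13.68 and 13.47 in brown fat, against 8.48 and 13.01 in muscle. Brown fat markers were thus high on muscle replicate 2, whereas the medians in muscle at room temperature were 6.46 and 6.58. Muscle replicate 1, at 8.48, also lay above these 2 medians, and the cause was not tested. Ucp1 itself read 14.68 and 14.41 in brown fat, against 9.15 and 14.45 in muscle, and skeletal actin (Acta1) read 6.54 and 14.16 in brown fat, against 14.78 and 14.83 in muscle. In bulk tissue, fewer cells of a type and less RNA per cell cannot be told apart. Results are therefore also given for the pair of arrays with the least of the other tissue's markers, brown fat replicate 1 and muscle replicate 1, called the replicate 1 pair. In that fit each cold group has 1 array, whose spread is assumed to be that of the room temperature groups. The pair was chosen by these marker levels, so what it gives for markers, and for genes that move with them, is a description and not a separate test. Where its dim array is not above background, the size of a difference on it is that of the intensities and not of the transcripts.

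**Figure D1:**
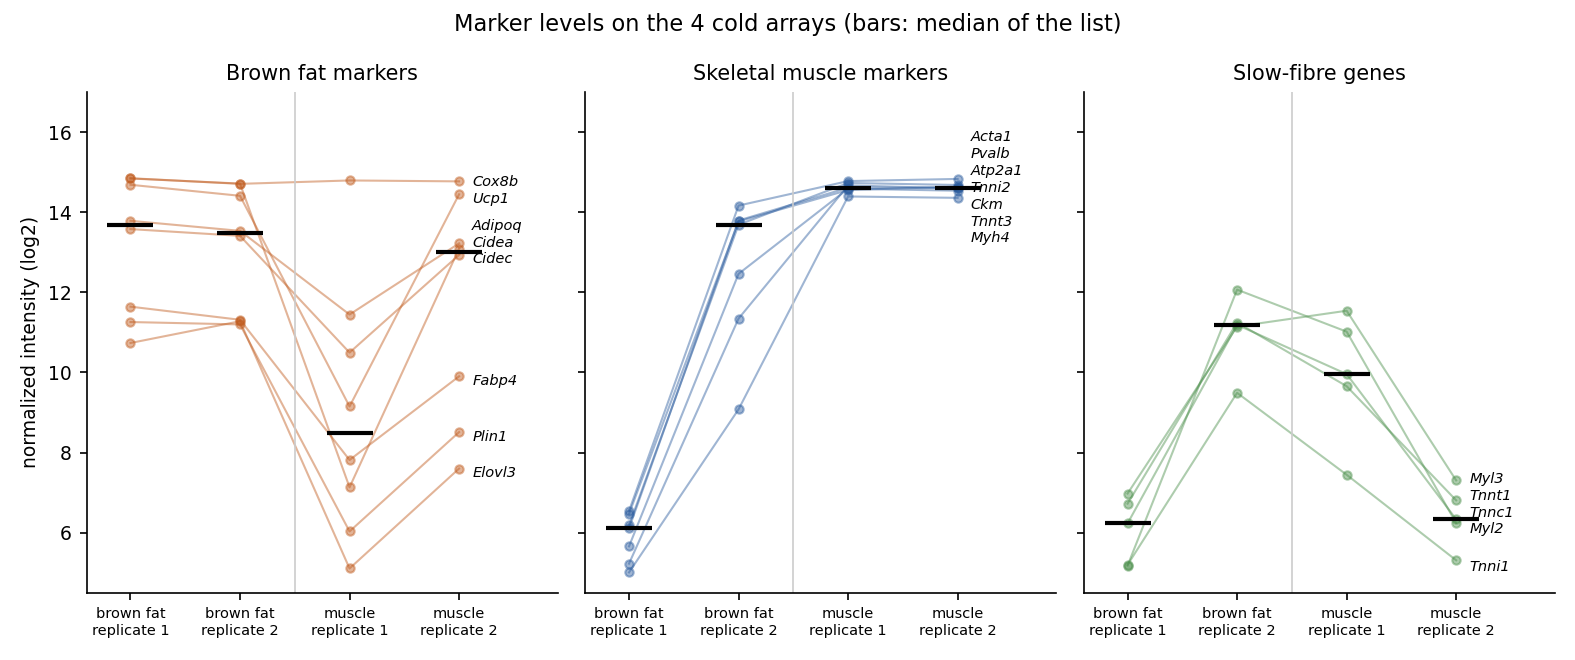
Normalized intensity (log2) of each marker on the 4 cold arrays, brown fat left of muscle, with a bar at the median of the list. Muscle markers were near 6 only on brown fat replicate 1, brown fat markers were high on muscle replicate 2 as well as in brown fat, and the 5 slow-fibre genes were high on brown fat replicate 2 and muscle replicate 1.

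Muscle genes on brown fat replicate 2 did not stand in the proportions seen in quadriceps. Myh4, the myosin heavy chain of the fastest fibres, read 5.01 and 9.08 in brown fat, against 14.39 and 14.36 in muscle. Myl2, the regulatory myosin light chain of slow fibres and heart, read 5.18 and 12.07 in brown fat, against 11.02 and 6.24 in muscle. Brown fat replicate 2 was therefore far below quadriceps for Myh4 but above both quadriceps arrays for Myl2. Over 5 slow-fibre genes (Myl2, Myl3, Tnnt1, Tnni1 and Tnnc1, picked after their values were seen) the medians were 6.23 and 11.19 in brown fat, against 9.96 and 6.33 in muscle. The 2 cold quadriceps arrays thus also differed from each other in slow-fibre genes. The same 5 genes had medians at room temperature of 10.64 and 10.59 in brown fat, above the 7.94 and 8.37 in muscle.

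Most of the transcriptome differed between the tissues in the cold. A gene is called past the threshold at an adjusted p under 0.05 (limma, Benjamini-Hochberg over all genes). Of 9963 genes tested, 6383 passed, which is 64.1% of them: 3397 were higher in brown fat (34.1%) and 2986 lower (30%). The median log2 difference over all genes was 0.07. At 16-fold or more, 39 genes were higher in brown fat and 190 lower, while 1809 and 1525 called genes differed by less than 2-fold. From 8-fold to under 16-fold, 93 were higher and 137 lower. At room temperature 253 genes past the threshold were at least 3 log2 units higher and 301 at least 3 lower. In the cold, 252 of those 253 read higher on muscle replicate 2 than on replicate 1. How this changes the counts was not tested. Values of the 4 arrays did not overlap between tissues for 8237 genes (82.7%). The replicate 1 pair gave 3112 higher (31.2%) and 2784 lower genes (27.9%), 59.2% in all; 2917 of the higher and 2637 of the lower calls were shared, and 0 were called in opposite directions. With each array left out in turn, 2666 higher and 2421 lower genes passed every time. Under median scaling, used instead of quantiles, the split turned, to 1109 higher and 1872 lower (37.2% higher, against 53.2%), and the median over all genes was -0.12. Of the 179 genes past the threshold that are named by rule below, 0 changed direction under any setting run, and 42 lost the call with median scaling.

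**Figure D2:**
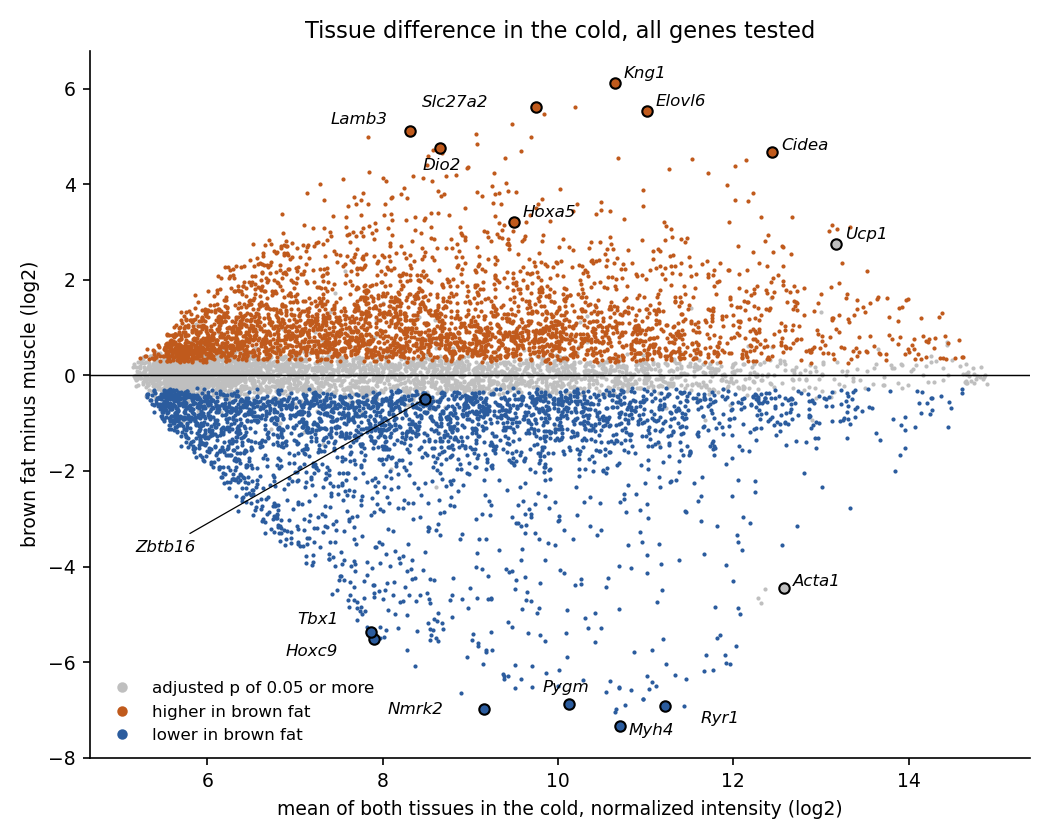
Brown fat minus muscle in the cold (log2) against the mean level of both tissues (log2) for each of the 9963 genes tested; colour marks genes past the threshold. The lower cloud reaches further from 0 (Myh4, -7.33) than the upper one (Kng1, 6.12), and Ucp1 and Acta1 lie in grey.

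The genes with the largest differences in favour of brown fat were of several kinds. Kng1, the precursor of bradykinin, led: it read 13.78 and 13.65 in brown fat, against 5.85 and 9.33 in muscle, a difference of 6.12 (SE 0.93, adjusted p = 0.00097). Slc27a2, a fatty acid transporter that also activates its cargo, followed at 5.62, with Mfsd2a, a carrier of lysophospholipids, also at 5.62. Elovl6, which elongates long-chain fatty acids, was higher by 5.54 and Ffar4, a receptor for long-chain fatty acids, by 5.46. The potassium channel Kcnk3 (5.25), the cytochrome P450 Cyp2b10 (5.05), the DNA polymerase Poln (4.84) and the glycolytic enzyme Pfkp (4.70) came next. In all 12 leading genes, muscle replicate 2 read above muscle replicate 1, by 0.40 to 5.96 log2 units, and 7 of the 12 were above background on only 1 muscle array. Lamb3, a laminin chain of basement membranes, had the most even values of these: 10.84 and 10.90 in brown fat, against 5.55 and 5.95 in muscle (difference 5.12, SE 0.20, adjusted p = 4.21e-06).

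Of 14 thermogenic genes tested, 10 were higher in brown fat, 0 lower and 4 not past the threshold. The share higher was 71.4%, against 34.1% of all genes. The list had a median difference of 3.60, against 0.07 over all genes, and 5.52 on the replicate 1 pair. Dio2, the deiodinase that makes active thyroid hormone inside the cell, read 11.30 and 10.76 in brown fat, against 5.21 and 7.35 in muscle (difference 4.75, SE 0.61, adjusted p = 0.000411). Both brown fat arrays stood above both muscle arrays, and a second Dio2 probe gave 1.14 (SE 0.18, adjusted p = 0.00107). Cidea, a lipid droplet protein, read 14.84 and 14.71 in brown fat, against 7.13 and 13.09 in muscle. Its difference of 4.67 (SE 1.58, adjusted p = 0.0347) lost the call under 8 of 21 other settings, with an adjusted p of up to 0.104. Ppargc1a, the coactivator that drives mitochondrial biogenesis, read 12.93 and 12.89 in brown fat, against 9.73 and 10.33 in muscle (difference 2.88).

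Ucp1, the gene that defines the tissue, did not pass with 4 arrays. Its difference was 2.75, with an interval from -0.58 to 6.08 (SE 1.41, adjusted p = 0.127). The spread lay in muscle, where replicate 2 read as high as brown fat. On the replicate 1 pair, which Ucp1 helped to choose, it was 5.58 higher in brown fat. The other 3 members that did not pass, Cox7a1, Cox8b and Fabp3, were near the top of the scale in both tissues and are taken up with the isoforms. Bmp8b was not tested because no group detected it on both arrays. Adrb3, Gyk and Gmpr were not analysed here.

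The largest differences of all were in genes lower in brown fat. Myh4 was lower in brown fat by a difference of -7.33 (SE 1.09, adjusted p = 0.000839), and was above background on only 1 of the 2 brown fat arrays, so the size is one of intensity. Casq1, which stores calcium in the sarcoplasmic reticulum, was lower by a difference of -7.05, Ryr1, the calcium release channel, by -6.92, and the muscle glycogen phosphorylase Pygm by -6.87. Nmrk2, a nicotinamide riboside kinase of muscle, read 5.17 and 6.16 in brown fat, against 12.90 and 12.39 in muscle (difference -6.98, SE 0.31, adjusted p = 6.61e-06). Rasd2, a small GTPase, read 5.32 and 5.81 in brown fat, against 11.93 and 12.50 in muscle (-6.65, SE 0.23, adjusted p = 3.07e-06). These 2 genes separated the tissues with brown fat replicates within 1 log2 unit of each other. The other 6 of the 12 leading genes were the elongation factor Eef1a2 (-6.77), the muscle ankyrin repeat gene Ankrd23 (-6.99), the ubiquitin ligase subunit Asb2 (-6.78) and the sarcomere genes Myoz1 (-6.91), Nrap (-6.63) and Mybpc2 (-6.58). Brown fat replicate 2 read above replicate 1 in all 12, and 10 of the 12 were above background on only 1 brown fat array.

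The bases before the start of 4 of these genes are shown because motifs known from muscle and thermogenic genes were found there. The sequences are from RefSeq (GRCm38.p6), are 250 bases long, end at the base before the annotated start and are written 5′ to 3′ on the gene's strand. In the 3 muscle genes, capitals mark the E-box CAGCTG, the MEF2 site and the SRF CArG box, which are the letters bound by myogenic regulators, by MEF2 factors and by serum response factor in muscle genes. In Dio2, capitals mark the cyclic AMP response element TGACGTCA. A match is a description of letters, not evidence of binding.
Myh4 (chr11:67237562-67237811, plus strand): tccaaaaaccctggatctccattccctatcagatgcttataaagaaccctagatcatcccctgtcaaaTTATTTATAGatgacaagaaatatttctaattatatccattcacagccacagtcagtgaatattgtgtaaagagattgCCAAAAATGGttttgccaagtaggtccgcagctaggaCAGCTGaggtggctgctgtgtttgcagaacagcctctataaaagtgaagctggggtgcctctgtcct
Acta1 (chr8:123894776-123895025, minus strand): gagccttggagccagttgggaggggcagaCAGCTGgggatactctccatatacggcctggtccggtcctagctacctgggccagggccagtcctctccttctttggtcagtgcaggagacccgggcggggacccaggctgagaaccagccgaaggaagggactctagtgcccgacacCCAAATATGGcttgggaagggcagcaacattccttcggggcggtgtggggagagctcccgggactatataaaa
Pygm (chr19:6384158-6384407, plus strand): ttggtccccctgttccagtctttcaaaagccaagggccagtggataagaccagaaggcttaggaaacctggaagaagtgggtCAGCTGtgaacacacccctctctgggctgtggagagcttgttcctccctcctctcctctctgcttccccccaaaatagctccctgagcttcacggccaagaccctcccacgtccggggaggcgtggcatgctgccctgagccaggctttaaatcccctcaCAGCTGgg
Dio2 (chr12:90739039-90739288, minus strand): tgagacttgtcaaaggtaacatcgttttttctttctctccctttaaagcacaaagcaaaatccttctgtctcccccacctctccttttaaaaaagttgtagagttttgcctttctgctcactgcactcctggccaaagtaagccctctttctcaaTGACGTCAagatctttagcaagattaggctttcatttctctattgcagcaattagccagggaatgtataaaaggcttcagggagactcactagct

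Myh4 held all 3 muscle motifs, at -182 (MEF2), -104 (SRF CArG box) and -67 (CAGCTG) from its start. Acta1 held CAGCTG at -221 and a CArG box at -73, Pygm held CAGCTG at -168 and -8, and Dio2 held TGACGTCA at -95. To see how common these letters are, 15 motifs were searched on both strands in windows of 300 bases (250 before to 50 after the start). The genes were sorted by their tissue difference at room temperature, with a spread estimated from all 8 arrays, the cold ones included. Past the threshold, 253 genes were at least 3 log2 units higher in brown fat and 301 at least 3 lower. Of these, 168 and 196 matched a window. CAGCTG was in 16.7% of the brown fat genes, 38.8% of the muscle genes, 18.2% of the 6972 tested genes matched and 18.3% of all 27025 genes. The MEF2 site was in 0.595% of the brown fat genes, 9.69% of the muscle genes, 2.41% of tested genes and 3.7% of all genes. The CArG box was in 1.19% of the brown fat genes, 5.1% of the muscle genes, 1.74% of tested genes and 1.81% of all genes. CATTCC, the letters of TEAD factors, was in 12.5% of the brown fat genes, 22.4% of the muscle genes, 14.4% of tested genes and 16.6% of all genes. TATAAA was in 9.52% of the brown fat genes, 17.3% of the muscle genes, 9.88% of tested genes and 15.7% of all genes. For the brown fat genes no motif searched stood as far from the tested genes as CAGCTG did for the muscle genes. AGGTCA, the half-site of many nuclear receptors, was in 19.6% of them and 15.1% of tested genes, and TGACGTCA in 2.98% and 3.53%. Over the other 8 motifs (TCAAGGTCA, the direct repeat of AGGTCA spaced by 1 base, TGACG, which is also inside TGACGTCA, the CCAAT box, the GATA site GATAAG, the NRF1 site, the EBF site and TTTATTGC) the brown fat genes lay -5.8 to 1.34 percentage points from tested genes and the muscle genes -6.1 to 2.78. A MEF2 site can contain TATAAA, the half-site AGGTCA lies inside TCAAGGTCA and its own repeat, and CAGCTG reads the same on both strands. No test was made of these shares.

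Lipid genes were higher in brown fat nearly throughout. Of 19 fatty acid and triglyceride synthesis genes tested, 17 were higher, 0 lower and 2 (Scd1 and Lpin1) not past the threshold. The share higher was 89.5%, against 34.1% of all genes, and the median was 2.76. Elovl6 read 13.68 and 13.89 in brown fat, against 5.79 and 10.71 in muscle. Agpat2, which adds the second fatty acid to the glycerol backbone, was higher by 4.23 (SE 0.90, adjusted p = 0.00476), Slc25a1, the citrate carrier that supplies carbon for synthesis, by 4.03 (SE 0.62) and Thrsp, a regulator of lipogenesis, by 3.99 (SE 0.59). Fatty acid synthase itself (Fasn) read 13.86 on both brown fat arrays, against 9.48 and 12.37 in muscle (difference 2.93, adjusted p = 0.0131). Muscle replicate 2 lay between the tissues for each of these.

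Of 18 lipolysis, uptake and droplet genes, 15 were higher in brown fat, 1 was lower and 2 (Lpl and Fabp3) did not pass. As a share 83.3% were higher, against 34.1% of all genes, and the median was 1.81. G0s2, the inhibitor of adipose triglyceride lipase, read 11.72 and 12.52 in brown fat, against 7.74 and 9.75 in muscle (3.37, SE 0.60, adjusted p = 0.00198). Plin5, a droplet coat protein of oxidative tissues, read 9.87 and 9.93 in brown fat, against 6.50 and 7.21 in muscle (3.05, SE 0.22, adjusted p = 3.26e-05). Plin2, the general droplet coat protein, was higher by 3.31 and Fabp4, the adipocyte fatty acid binding protein, by 2.62. The member lower in brown fat was Vldlr, a lipoprotein receptor, at 12.48 and 12.81 in brown fat, against 13.59 and 13.61 in muscle (-0.95, SE 0.17, adjusted p = 0.00184).

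Of general adipocyte genes, 7 of 13 were higher (53.8%, against 34.1% of all genes), 0 lower and 6 not past the threshold. Their median was 1.78, against 3.84 at room temperature, and 2.54 on the replicate 1 pair. The list's median level was 13.5 and 12.9 in brown fat, against 7.94 and 11.2 in muscle. Plin1, the droplet gatekeeper of adipocytes, read 11.26 and 11.20 in brown fat, against 6.03 and 8.51 in muscle (3.96, SE 0.67, adjusted p = 0.0016). Adipoq, the adipokine adiponectin, read 13.79 and 13.53 in brown fat, against 11.45 and 13.22 in muscle (1.33, adjusted p = 0.0549). Adiponectin was thus far above background on both muscle arrays. Gpd1, which makes glycerol phosphate in fat and serves a redox shuttle in muscle, differed by 0.04 (adjusted p = 0.751).

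The oxidation of fat and acetyl-CoA was higher in brown fat as well. All 17 fatty acid oxidation genes tested were higher, against 34.1% of all genes. Their median was 1.59, and 1.79 on the replicate 1 pair. Acads, the short-chain acyl-CoA dehydrogenase, read 11.07 and 10.93 in brown fat, against 8.03 and 8.33 in muscle (2.82, SE 0.15, adjusted p = 1.09e-05). Hadh (2.58, SE 0.20), Acadl (2.50, SE 0.17) and Echs1 (2.39, SE 0.19) act in the same spiral. The smallest difference of the list was that of Cpt1b, the carnitine transferase that admits fatty acids to mitochondria in muscle and brown fat, at 0.56 (SE 0.10, adjusted p = 0.00259), although a second Cpt1b probe gave 1.74. Of 18 citric acid cycle and pyruvate dehydrogenase genes 17 were higher (94.4%) and 1, Idh3a, was not past the threshold (median 1.21). Ogdh, a rate-controlling dehydrogenase of the cycle, read 14.14 and 14.15 in brown fat, against 12.46 and 12.43 in muscle (1.70, SE 0.09, adjusted p = 1.36e-05), with no mark of the spread between muscle arrays. Dld (1.83, SE 0.11) was as even, whereas Idh3b (3.65, SE 0.72) read 9.01 and 11.67 in muscle. Pcx, which refills the cycle from pyruvate, was higher by 1.60.

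By intensity, the respiratory chain differed less and in both directions. The list's median level was 14.24 and 14.18 in brown fat, against 13.77 and 13.72 in muscle. These levels lie near the top of the scale, where differences are compressed. How far that made the list's differences small was not tested. Of 26 genes 17 were higher in brown fat (65.4%), 3 lower (11.5%) and 6 not past the threshold, with a median of 0.45. Of all genes 34.1% were higher and 30% lower. Cyc1, a subunit of complex III, read 14.19 and 14.18 in brown fat, against 12.86 and 12.67 in muscle (1.42, SE 0.11, adjusted p = 4.81e-05). All 3 lower members belong to ATP synthase or its control. Atp5g1, 1 of several genes for the membrane ring subunit of ATP synthase, read 8.50 and 10.66 in brown fat, against 14.74 and 14.41 in muscle (-5.00, SE 0.60, adjusted p = 0.000324). Atp5g3, another gene for the same subunit, was lower by a difference of -0.58 (SE 0.11), and Atpif1, the inhibitor of ATP synthase, by -1.06 (SE 0.12). The catalytic subunit gene Atp5b differed by -0.12 without passing, and Atp5a1 was higher by 0.76.

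**Figure D3:**
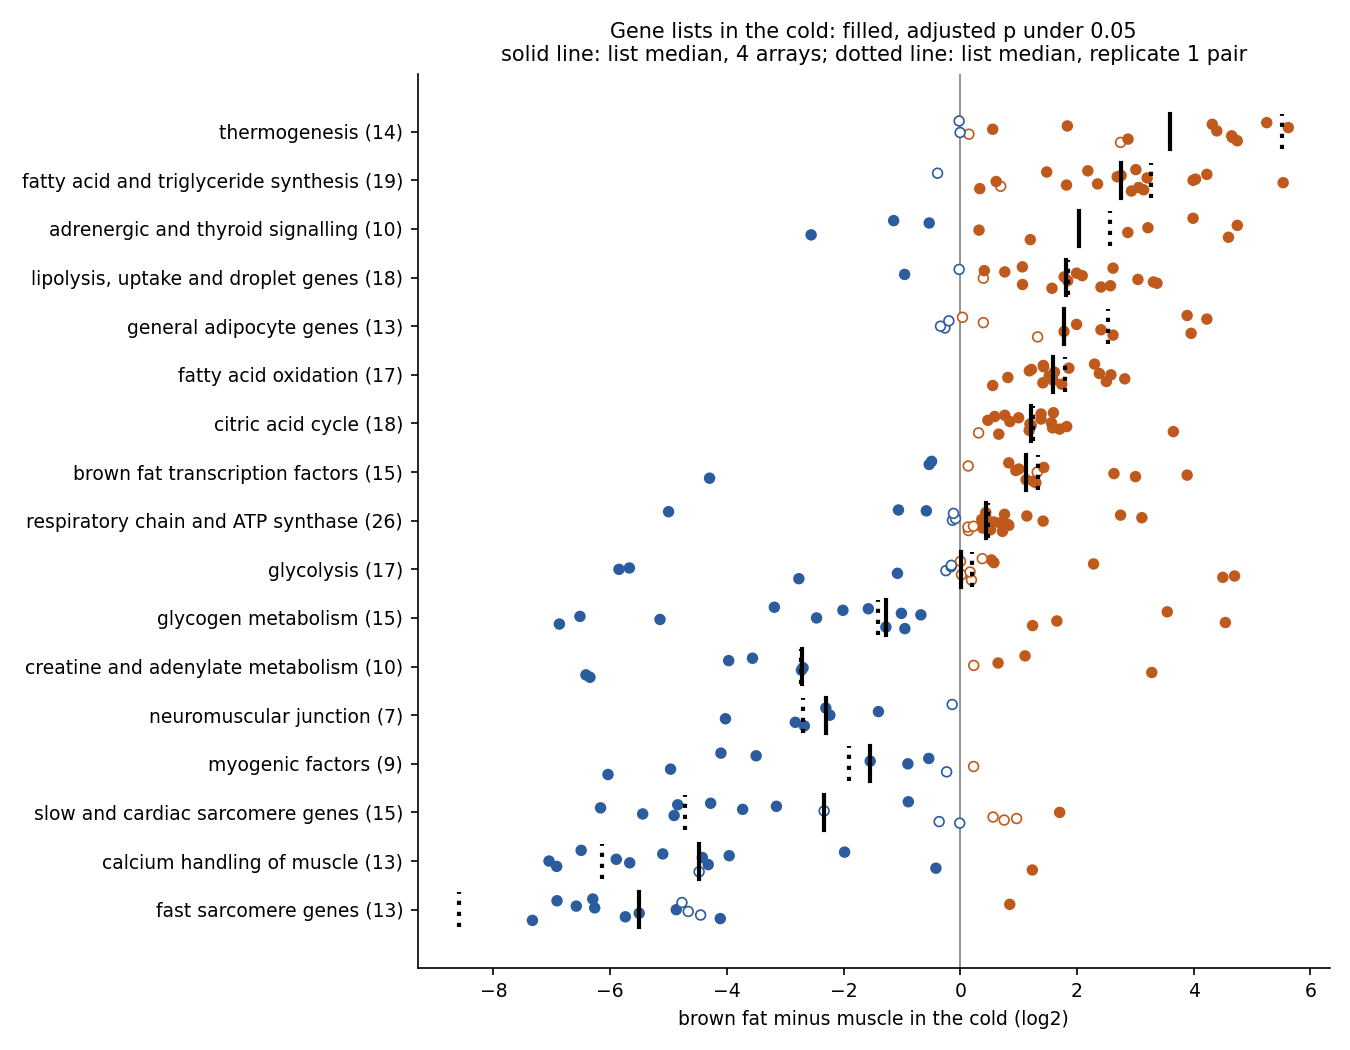
Brown fat minus muscle in the cold (log2) for each tested member of 17 gene lists, with the number tested in brackets. Filled points passed the threshold. Solid lines are list medians over the 4 arrays and dotted lines those of the replicate 1 pair. Lists run from thermogenesis (median 3.60) to fast sarcomere genes (-5.50, and -8.59 on the replicate 1 pair).

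Among transcription regulators of brown fat, 10 of 15 tested were higher (66.7%), 3 lower (20%) and 2 not past the threshold (median 1.13). The shares of all genes were 34.1% and 30%. Pparg, the master regulator of adipocytes, read 12.90 and 12.92 in brown fat, against 7.53 and 10.51 in muscle (3.89, SE 0.80, adjusted p = 0.00406). Ppara, which drives fat oxidation genes, read 9.47 and 9.05 in brown fat, against 5.88 and 6.63 in muscle (adjusted p = 0.000136), and the coactivator Ppargc1b was higher by 2.64 (SE 0.33). The identity factors Ebf2 (1.30) and Zic1 (1.13) were higher by less. Zbtb16, the zinc finger factor of the series title, differed little: 8.34 and 8.14 in brown fat, against 8.79 and 8.67 in muscle, a difference of -0.49 (SE 0.18, adjusted p = 0.0427) that did not pass on the replicate 1 pair (-0.44, adjusted p = 0.209). It lost the call under 11 of the 21 other settings. Tbx15, a T-box factor known in brown fat and in glycolytic muscle fibres, was lower, at 5.41 and 5.87 in brown fat, against 10.20 and 9.67 in muscle (-4.30, SE 0.22, adjusted p = 1e-05), and by -1.51 with a second probe. Prdm16, Lhx8 and Esrrg were not above background on both arrays of any group and were not tested.

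Adrenergic and thyroid signalling genes passed in all 10 members tested, 7 higher (70%) and 3 lower (30%), against 34.1% and 30% of all genes. The list's median was 2.04 in the cold and 2.11 at room temperature, and 1 of the 10 passed the interaction test given below. Adcy3, an adenylate cyclase, read 10.88 and 10.75 in brown fat, against 5.23 and 7.20 in muscle (4.60, SE 0.55, adjusted p = 0.000302), and a second Adcy3 probe gave 1.04. Adcy9, another adenylate cyclase, went the other way, with 7.54 and 7.47 in brown fat, against 10.14 and 9.97 in muscle (-2.56, SE 0.11, adjusted p = 4.94e-06). Pde3b, the phosphodiesterase through which insulin lowers cyclic AMP in fat, was higher by 3.22 (SE 0.64), and Slc16a10, a carrier of thyroid hormone and aromatic amino acids, was lower by a difference of -1.14 (SE 0.21). Of 13 cyclic AMP and early genes, 6 were higher, 2 lower and 5 not past the threshold. As shares, 46.2% were higher and 15.4% lower, against 34.1% and 30% of all genes. The share past the threshold was near the 64.1% of all genes. Nr4a2, an early nuclear receptor, read 9.28 and 8.80 in brown fat, against 6.50 and 6.27 in muscle (2.65, SE 0.19, adjusted p = 3.59e-05), while Jun was lower by a difference of -1.20 (SE 0.19).

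The contractile lists had negative medians. Of 13 fast sarcomere genes 9 were lower in brown fat (69.2%, against 30% of all genes) and 1 was higher. The other 3 (Acta1, Tnni2 and Pvalb) did not pass, and the list had a median of -5.50. On the replicate 1 pair 12 were lower and the median was -8.59. Myoz1, a calcineurin-binding Z-disc protein, read 5.21 and 10.76 in brown fat, against 14.93 and 14.85 in muscle (-6.91, SE 1.48, adjusted p = 0.00488), and Mybpc2, the fast myosin binding protein C, was lower by a difference of -6.58. Acta1 differed by -4.45 (SE 2.03, adjusted p = 0.0919), and by -8.28 on the replicate 1 pair, which Acta1 helped to choose. Tpm1, a tropomyosin that cells outside muscle also make, was the member higher in brown fat (0.85, SE 0.15, adjusted p = 0.00188).

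Of 15 slow and cardiac sarcomere genes 8 were lower (53.3%, against 30% of all genes), 1 was higher and 6 did not pass (median -2.33). On the replicate 1 pair 14 were lower and 1 higher (median -4.72). Titin (Ttn), the giant spring of the sarcomere, was lower by a difference of -6.16 (SE 1.78, adjusted p = 0.0182) and Tcap, its cap at the Z-disc, by -4.84 (SE 1.18). Actc1, the cardiac actin, read 5.12 and 6.09 in brown fat, against 10.33 and 10.68 in muscle (-4.90, SE 0.56, adjusted p = 0.000254), and a second Actc1 probe gave -1.67. Of the slow-fibre genes, Myl2 differed by -0.01 (adjusted p = 0.997) with 4 arrays and by -6.01 on the replicate 1 pair. The higher member was Tpm3 at 1.70, for which 1 other probe gave 0.05 without passing.

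Calcium handling genes were lower in 11 of 13 cases (84.6%, against 30% of all genes). In addition 1 was higher and 1 (Atp2a1) not past the threshold, and the list had a median of -4.47. Casq1 read 5.32 and 8.93 in brown fat, against 14.25 and 14.10 in muscle (SE 0.97, adjusted p = 0.000587). Hrc, a calcium-binding protein of the reticulum, was lower by a difference of -6.50 (SE 1.17). Asph, whose muscle isoforms include junctin, was lower by -5.89 (SE 0.53) and by -5.46 with a second probe, whereas 5 more Asph probes gave -0.42 to 0.39. Of 9 myogenic factors 7 were lower (77.8%) and 2 (Mef2a and Mef2d) did not pass. Myf6, a myogenic regulator kept in adult fibres, read 5.40 and 6.84 in brown fat, against 12.23 and 12.09 in muscle (-6.04, SE 0.43, adjusted p = 3.2e-05), and Mef2c read 7.41 and 8.47 in brown fat, against 12.96 and 12.85 in muscle (-4.96, SE 0.30). Cdh15, the cadherin of muscle precursor cells, was below background on both brown fat arrays and was at least 8.68-fold lower there (adjusted p = 4.22e-06). Myod1, Myog, Myf5 and Pax7 were not above background on both arrays of any group. At the neuromuscular junction 6 of 7 genes were lower (85.7%). Rapsn, which clusters the acetylcholine receptor, was lower by a difference of -4.02 (SE 0.18, adjusted p = 6.28e-06). The receptor's adult subunit Chrne was at least 6.21-fold lower.

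Glycogen genes all passed, 11 lower (73.3%) and 4 higher (26.7%) of 15 tested, against 30% and 34.1% of all genes (median -1.27). Pygm read 5.16 and 8.21 in brown fat, against 13.56 and 13.55 in muscle. Its liver counterpart Pygl read 12.86 and 13.06 in brown fat, against 6.86 and 9.97 in muscle (4.54, SE 0.83, adjusted p = 0.00233). The regulatory subunits of phosphorylase kinase were lower, with Phka1 at 5.77 and 6.34 in brown fat, against 11.16 and 11.23 in muscle (-5.15, SE 0.19, adjusted p = 3.56e-06). Ppp1r3b, which targets protein phosphatase 1 to glycogen in liver, was higher by 3.55 (SE 0.38), and Epm2a, the glycogen phosphatase laforin, was at least 7.19-fold lower. In glycolysis 5 of 17 genes were higher, 4 lower and 8 not past the threshold (median 0.02). The shares higher and lower, 29.4% and 23.5%, were below the 34.1% and 30% of all genes. Pgam2 (-5.85) and Eno3 (-5.67), the muscle forms of phosphoglycerate mutase and enolase, were lower, and Pfkl (4.50) and Pfkp (4.70), 2 of the phosphofructokinases, were higher. The common steps Aldoa (0.02), Gapdh (0.17), Pgk1 (-0.25) and Pkm (-0.16) did not pass.

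In creatine and adenylate metabolism 6 of 10 genes were lower (60%), 3 higher (30%) and 1 not past the threshold (median -2.71). Of all genes 30% were lower and 34.1% higher. The muscle creatine kinase Ckm read 5.23 and 11.34 in brown fat, against 14.67 and 14.60 in muscle (-6.35, SE 1.63, adjusted p = 0.0111). The brain-type kinase Ckb read 12.30 and 12.49 in brown fat, against 8.77 and 9.45 in muscle (3.28, SE 0.23, adjusted p = 3.2e-05). Ak1, the muscle adenylate kinase, had nearly the same level on both arrays of each tissue, 9.84 and 10.03 in brown fat, against 13.86 and 13.95 in muscle (-3.97, SE 0.11, adjusted p = 1.89e-06).

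Related genes were compared as 20 isoform pairs, in most of which the first is known as the muscle form. Both members were tested in 14 of them. Of all genes 34.1% were higher and 30% lower, and the pairs were chosen with earlier results of these data known. In 6 pairs the members passed in opposite directions, the first lower and the second higher in brown fat: Ckm and Ckb, Cox6a2 and Cox6a1, Pygm and Pygl, Pfkm and Pfkl, Slc25a4 and Slc25a5, and Phkg1 and Phkg2. Cox6a2, the heart and muscle form of a cytochrome oxidase subunit, read 5.22 and 11.92 in brown fat, against 14.79 and 14.74 in muscle (-6.19, SE 1.78, adjusted p = 0.0181). Cox6a1 read 14.90 and 14.87 in brown fat, against 10.66 and 12.88 in muscle (3.11, SE 0.60, adjusted p = 0.00295). The ADP/ATP carriers parted by less: Slc25a4 differed by -2.80 (SE 0.16) and Slc25a5 by 1.93 (SE 0.21), with replicates close in each. In the other 8 pairs 1 member did not pass. Among the members of these that did, Slc2a1 and Fbp2 lost the call under 10 and 9 of 21 other settings.

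For Cox7a1 and Cox8b, the forms of cytochrome oxidase subunits shared by muscle and brown fat, no difference passed. Cox8b read 14.85 and 14.71 in brown fat, against 14.79 and 14.77 in muscle, with an interval of the difference from -0.25 to 0.24. Cox7a1 differed by 0.15 (-0.08 to 0.38), Fabp3 by -0.02 (-0.37 to 0.33) and Ldha by -0.15 (-0.39 to 0.09). These 4 genes had raw signals of 67.9% to 94.6% of the highest signal on the array, where an array separates levels poorly, so the intervals hold for intensity and not for transcript number. Slc2a4, the insulin-responsive glucose transporter, was well below that range and differed by 0.01 (-0.33 to 0.34). Their partners Cox8a (2.75), Cox7a2 (1.18), Fabp4 (2.62) and Ldhb (2.29) were higher in brown fat. Atp2a2, the calcium pump of slow muscle and of most other cells, was higher by 1.24 (SE 0.18), while Atp2a1, that of fast muscle, differed by -4.47 without passing and by -8.12 on the replicate 1 pair. Ucp3, the uncoupling protein homologue of muscle, read 9.29 and 8.70 in brown fat, against 10.73 and 10.63 in muscle (-1.69, SE 0.19, adjusted p = 0.000228). Ucp2 was not analysed here.

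**Figure D4:**
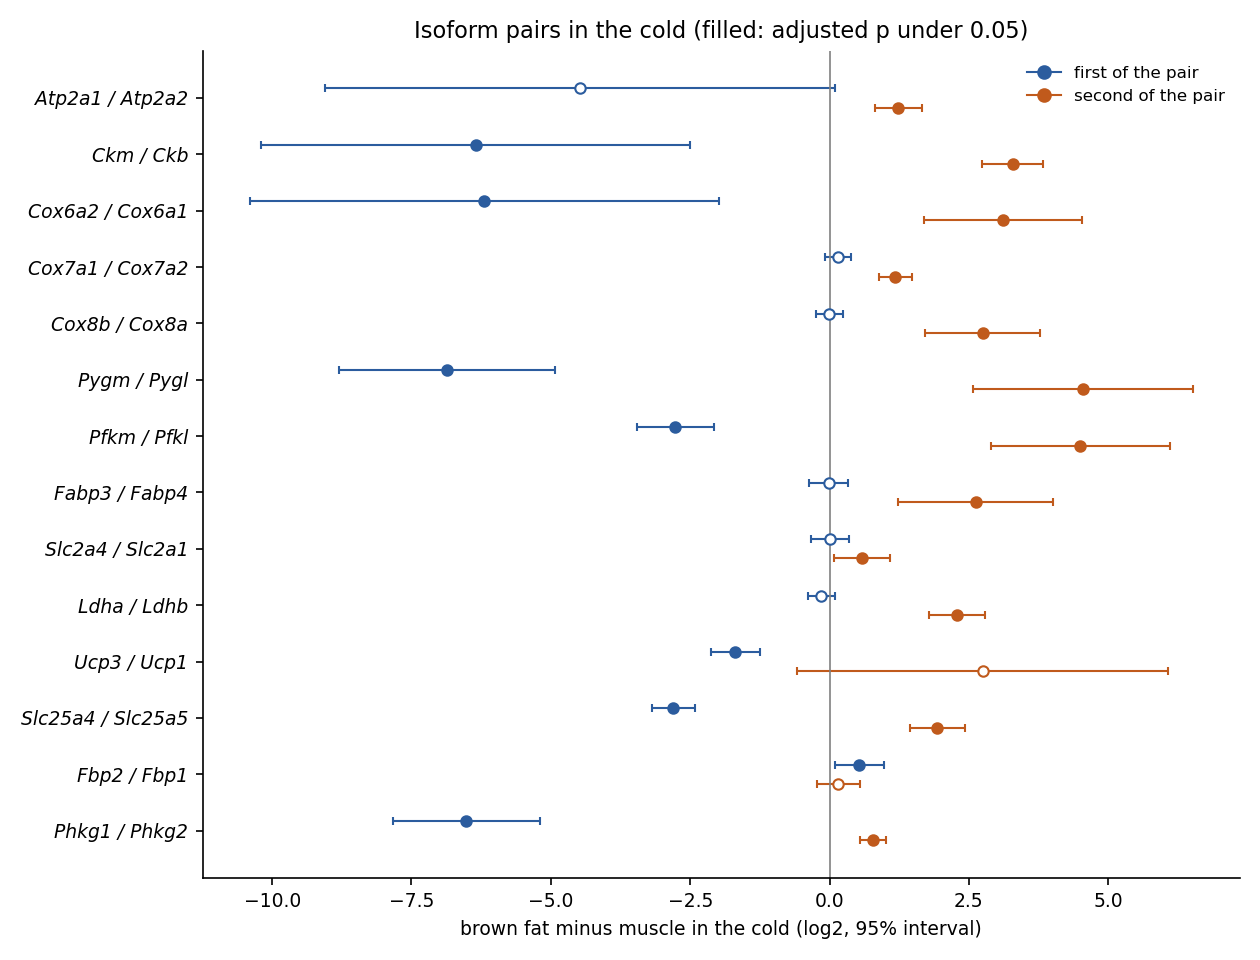
Brown fat minus muscle in the cold (log2, with the 95% interval) for both members of the 14 isoform pairs tested; filled points passed the threshold. The first member of each pair lies at or left of 0 in all pairs but Fbp2 and Fbp1, Cox7a1 and Cox7a2, and Slc2a4 and Slc2a1, where it lies at 0.54, 0.15 and 0.01.

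The Hox family, which lays out the body axis in the embryo and stays on in adult tissues, was looked at after its values were seen. Of 20 Hox genes tested 5 were higher, 8 lower and 7 not past the threshold, a share past it near the 64.1% of all genes, and the calls are given here by position in the cluster. In groups 2 to 5, the head end, 5 of 9 were higher and 1 lower. Hoxa5 read 11.19 and 11.02 in brown fat, against 7.83 and 7.95 in muscle (3.21, SE 0.11, adjusted p = 3.07e-06). In groups 6 to 8, 0 of 5 were higher and 2 lower. In groups 9 to 11, the tail end, 0 of 6 were higher and 5 lower. Hoxc9 was below background on both brown fat arrays, at 5.15 and 5.13, against 10.67 and 10.64 in muscle, at least 33.6-fold lower (adjusted p = 1.06e-06). Hoxc10 read 5.37 and 5.38 in brown fat, against 8.77 and 9.05 in muscle, at least 10-fold lower. These 3 genes read nearly alike on both arrays of a tissue. Others did not: Hoxd8 read 6.98 and 7.14 in brown fat, against 7.52 and 8.59 in muscle, and Hoxd9 and Hoxd10 were likewise higher on muscle replicate 2. Replicates were also close for Tbx1, at 5.27 and 5.11 in brown fat, against 10.63 and 10.48 in muscle, and for Lbx1, a factor of limb muscle precursors, at 5.49 and 5.42 in brown fat, against 8.90 and 8.84 in muscle.

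Markers of other cell types are read against all genes, of which 34.1% were higher and 30% lower. Endothelial markers were higher in brown fat in 9 of 12 cases, 1 was lower and 2 did not pass (median 0.90). Emcn, a surface protein of endothelium, read 10.81 and 10.59 in brown fat, against 9.42 and 9.45 in muscle (1.26, SE 0.12, adjusted p = 0.00012). Macrophage markers were higher in 6 of 8 cases and lower in 0 (median 0.76), such as Lyz2 (1.30) and C1qc (0.99). Lyz2 lost the call under 5 of 21 other settings, and C1qc, Cd14 and C1qb each lost it under median scaling alone. Fibroblast and matrix markers went both ways, with 3 of 11 higher and 4 lower (median 0.01). Of 4 red blood cell markers 2 were higher, of 5 Schwann cell markers 2, of 2 lymphocyte markers 1 (Cd74), and 0 of these were lower. White fat markers were lower in 4 of 7 cases and higher in 0 (median -0.86), with Hoxc9 the largest. In the fibroblast, white fat, red blood cell, Schwann cell and lymphocyte lists the share past the threshold was near or below that of all genes, which says nothing particular of them. The sex-linked genes Eif2s3y and Kdm5d did not pass (-0.33 and -0.22). The part of these cell types in the results above was not tested.

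Lists of genes that respond within hours were read in the same way. In the clock, secreted and interferon lists the share past the threshold was near or below the 64.1% of all genes. Of 19 cold, fasting and glucocorticoid targets 10 were lower in brown fat (52.6%), 6 higher (31.6%) and 3 not past the threshold. Of all genes 30% were lower and 34.1% higher. The list's median was -0.44, against 0.33 at room temperature, and 7 of the 19 passed the interaction test given below, all downward. Slc25a25, a calcium-regulated ATP carrier of mitochondria, read 7.20 and 7.01 in brown fat, against 11.42 and 11.20 in muscle (-4.20, SE 0.20, adjusted p = 7.89e-06). Ddit4, an inhibitor of mTORC1, was lower by a difference of -2.61 (SE 0.21), and Cdkn1a, the cell cycle inhibitor p21, was higher by 2.79 (SE 0.31). Of 8 heat shock genes 4 were higher (50%), 2 lower (25%) and 2 not past the threshold, against 34.1% and 30% of all genes. Their median was 0.97, against -1.02 at room temperature, but only 3 of the 8 passed the interaction test, all upward. Dnajb1, a cochaperone that did not pass the interaction, read 12.18 and 12.60 in brown fat, against 9.62 and 9.95 in muscle (2.60, SE 0.21, adjusted p = 5.52e-05). At room temperature its raw signal was 7.76% and 6.17% of the array maximum in brown fat, against 1.83% and 2.69% in muscle. The 2 lower members, Hspb7 (-3.82) and Cryab (-3.16), are chaperones of striated muscle. Of 12 clock genes 6 were lower and 2 higher: Dbp, an output factor, was lower by a difference of -1.56 (SE 0.15) and Per2 higher by 0.85 (SE 0.17). Another probe of Nr1d1 was lower by a difference of -0.81, but 1 more was higher by 0.60 (adjusted p = 0.00613), against -0.97 for the probe used, so its direction is not settled. Of 8 atrophy and autophagy genes 4 were lower (50%) and 2 higher (25%), against 30% and 34.1% of all genes. The lower ones were led by the ubiquitin ligases of muscle wasting Fbxo32 (-4.89, SE 0.47) and Trim63 (-4.29, SE 0.47). Of 10 secreted factors 2 were higher, Nrg4 (3.83) and Angptl4 (2.09), and 3 lower, Igfbp5 (-2.97), Il15 (-1.48) and Lep (at least 1.75-fold lower). Lep lost the call under 9 of 20 other settings, with an adjusted p of up to 0.197. Of 14 interferon-inducible genes 3 were higher (Cd274, Irf1 and Bst2, by 1.95, 1.09 and 1.04) and 0 lower. The other 3 Irf1 probes gave 0.17 to 0.81 without passing, and Irf1 lost the call under 7 of 21 other settings, with an adjusted p of up to 0.153.

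The tissue difference in the cold was then set against the one at room temperature. At room temperature 66.3% of genes passed. The brown fat set of 253 genes (2.54% of those tested) and the muscle set of 301 (3.02%), defined by the room temperature difference, were followed into the cold arrays. In the brown fat set 241 genes (95.3%) were also higher in the cold, with a median of 2.87 in the cold and 3.93 at room temperature, and 251 were higher on the replicate 1 pair (median 3.54). Muscle replicate 2 read above muscle replicate 1 in 252 of the 253 genes, by a median of 1.43. In the muscle set all 301 genes were lower in the cold, with a median of -4.30 in the cold and -4.07 at room temperature, and brown fat replicate 2 read above replicate 1 in 273 of them, by a median of 0.63. The cold and room temperature arrays are different samples but share 1 normalization and 1 estimate of spread. The cold arrays thus helped to choose both sets, since a gene with cold replicates far apart could miss the threshold at room temperature. Ckm and Cox6a2 were at least 3 log2 units lower at room temperature but did not pass there, so the muscle set leaves them out. The shares called in the cold and the replicate gaps of both sets are therefore partly fixed by this choice.

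Where the tissue difference itself departed from room temperature was tested as an interaction, which 410 genes passed (4.12%): 202 upward (2.03%) and 208 downward (2.09%). These counts depended on single arrays, from 5 to 262 upward and from 8 to 557 downward with 1 array left out. The lowest upward count came without the first room temperature brown fat array, and the highest without the first cold muscle array. Only 9 genes, 3 upward and 6 downward, passed with every array left out in turn. Lamb3 is among them: its tissue difference of 5.12 in the cold stood against 1.36 at room temperature (interaction 3.76, SE 0.29, adjusted p = 0.00674), where brown fat read 7.10 and 6.56, against 5.50 and 5.44 in muscle. E2f2, a factor of the cell cycle, was 0.92 higher in brown fat in the cold and -1.58 at room temperature. Foxo1, a factor of the fasting response, read 10.25 and 10.28 in brown fat in the cold, against 10.40 and 10.25 in muscle, and at room temperature 9.68 and 9.85 in brown fat, against 7.99 and 7.80 in muscle. Its tissue difference thus was -0.06 in the cold and 1.87 at room temperature (interaction -1.94). Slc40a1, the iron exporter ferroportin, differed by -2.11 in the cold and 0.14 at room temperature. The other named ones were Phlda1 (interaction -2.29), Arrdc2 (-2.01), Hoxa4 (-2.08) and Adcy9 (-1.90).

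By size alone, the upward side was led by Cldn1 (4.45), a tight junction protein, and Socs2 (4.02), a feedback inhibitor of cytokine and growth hormone signalling. Cldn1 lost the interaction call under 4 of 20 other settings and Socs2 under 2, each with 1 room temperature array left out. Socs2 read 10.95 and 11.18 in brown fat in the cold, against 8.39 and 8.61 in muscle, so it was 2.57 higher in brown fat in the cold and -1.46 at room temperature. The downward side was led by Hcar1 (-4.08), Pnpla3 (-4.01), Cebpa (-3.77), Angptl4 (-3.76) and Lep (-3.53). Brown fat means were lower in the cold than at room temperature for all of these but Angptl4. Angptl4 read 12.68 and 12.44 in cold brown fat, and 12.20 and 12.67 at room temperature. In muscle it read 9.63 and 11.31 in the cold, against 6.36 and 6.81 at room temperature. Pnpla3, a triglyceride lipase relative that is high in the fed state, read 8.47 and 8.97 in brown fat in the cold, against 7.19 and 7.28 in muscle, a difference of 1.48 where room temperature had 5.49. Hcar1, Cebpa and Angptl4 read higher on muscle replicate 2 than on muscle replicate 1, and each lost the call under 9 other settings. Pnpla3 and Lep each lost it under 2. Ucp3 changed sides: it was -1.69 in the cold and 1.26 at room temperature (interaction -2.95, adjusted p = 0.00931). The cold mice had no food during the exposure, and cold and food removal cannot be told apart here.

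**Figure D5:**
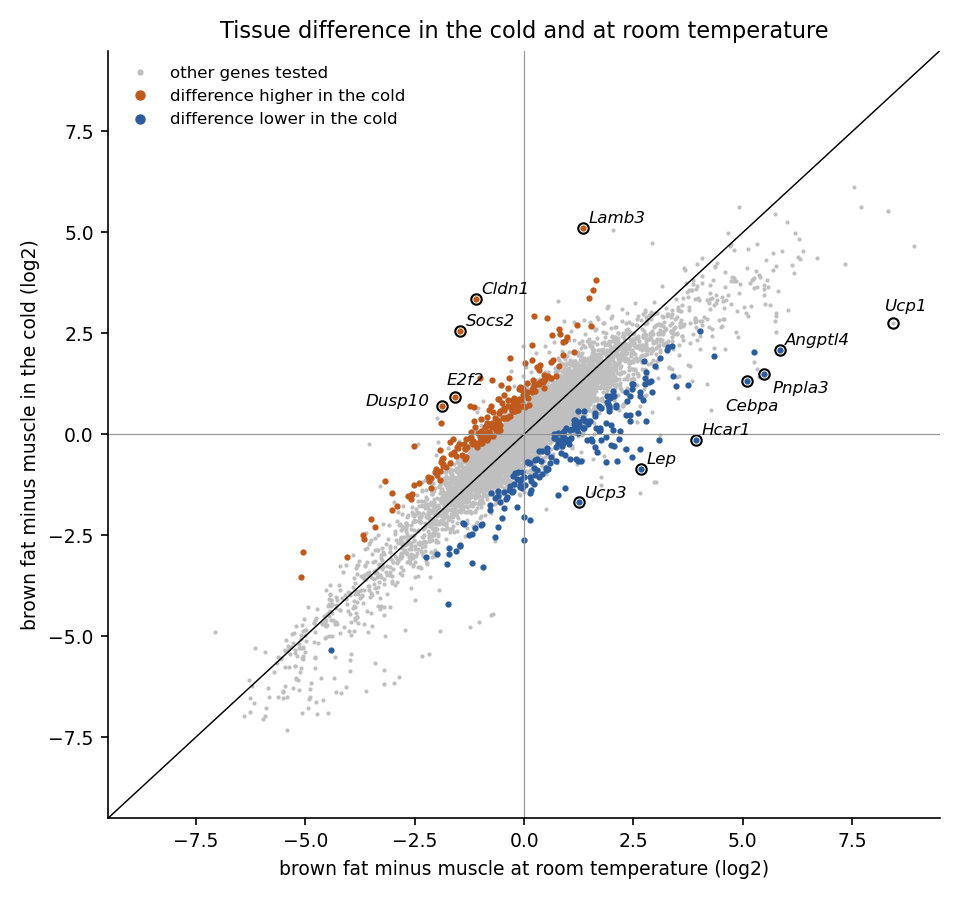
Brown fat minus muscle in the cold against the same at room temperature (both log2), with the line of equal values; colour marks the 202 genes above and 208 below it that passed the interaction. Most genes lie along the line, Lamb3, Cldn1 and Socs2 lie above it, and Ucp1, which did not pass, lies far below it at 2.75 and 8.43.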

How the data were processed

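Total RNA of 8 tissue samples in 4 groups of 2 was measured on 1-colour Illumina bead arrays. The non-normalized intensity per probe, with a detection value per array, is as the authors deposited it. Their processed values (a score with about 32.7% to 32.9% below 0 on each array) were deposited without a stated scale, and their software and normalization are not given in the sources used. The detection value was read as 1 minus a p-value. From the intensities, background was corrected by normexp with its spread inferred from the detection values (offset 16), followed by quantile normalization and log2, in R 4.3.3 with limma 3.58.1. Probes with detection p under 0.05 throughout 1 or more groups were kept, 11946 of 24607. The probe with the highest mean stood for each gene, giving 9963 genes, of which 8561 have a symbol. Of all probes 20980 have 1 symbol, 1 has several and 3626 have none. The fit (lmFit and eBayes, Benjamini-Hochberg at 0.05) used 4 group means on all 8 arrays, with 4 residual degrees of freedom. The number of arrays limits the precision. Detected probes numbered 10468 to 11280 per array and raw medians were 87.3 to 98.1. The first principal component, which parted the tissues, held 85.5% of the variance.

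Where a tissue was below background on both arrays, the fold is a lower bound, the bright tissue's mean against the higher of the probe's own signal and the lowest detected signal on each array. Named genes are up to 12 per direction by size without overlap, up to 10 per direction by the same rule on the replicate 1 pair, up to 4 per direction of each gene list, up to 5 per direction for the interaction, all isoform pairs, up to 5 per direction of the sets defined at room temperature, and Zbtb16, Ucp1, Ucp3 and Acta1. Genes outside the rule are named for their values or to fill a list's count, after those were seen. The comparison, lists and rule were chosen with earlier results of these data known. Titles and descriptions number the 2 cold muscle arrays in opposite order, and the titles are used. Deviations from group means of same-numbered arrays had a correlation of -0.12 between the cold groups and of -0.09 to 0.18 elsewhere. These values cannot show whether the arrays are paired. Alternatives changed the normalization, offset, filter, probe choice, arrays used and replicate block. The fit was tested on simulated data. Coordinates are given only for the RefSeq promoters, since no source names the array's build.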

Additional observations from a re-analysis of the deposited data

Results flagged for a closer look

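These genes are listed because their tissue difference in the cold departed from that at room temperature in the interaction test (limma, adjusted p under 0.05). Upward departures, in log2 units, were 4.45 for Cldn1, 4.02 for Socs2, 3.76 for Lamb3, 2.57 for Dusp10, 2.50 for E2f2, 2.39 for Hsph1, 1.82 for Hsp90aa1, 1.41 for Col1a1 and 1.15 for Maff. Downward departures were -4.08 for Hcar1, -4.01 for Pnpla3, -3.77 for Cebpa, -3.76 for Angptl4, -3.53 for Lep, -2.95 for Ucp3, -2.61 for Ddit4, -2.47 for Slc25a25, -1.97 for Irf4, -1.90 for Adcy9, -1.26 for Igfbp5, -1.17 for Dbp, -1.16 for Cry2 and -1.02 for Cd14. Of these, Lamb3, E2f2 and Adcy9 also passed with each array left out in turn. Lep was below background on both cold brown fat arrays, at 5.47 and 5.61, against 6.68 and 6.12 in cold muscle, and at room temperature it read 10.49 and 10.16 in brown fat, against 7.23 and 8.07 in muscle.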

How the results depend on the processing

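With 2 arrays a group, quantile normalization and the choice of arrays set most of the limits, and a gene near the top of the scale or below background has a compressed difference. Of the 179 named genes past the threshold, 126 kept the call and 53 lost it in at least 1 of 21 settings, 25 of them with median scaling alone. Median scaling gave 1109 higher and 1872 lower genes in the cold, and 16 upward and 47 downward interactions; the cause was not tested. Leaving out 1 array gave 2953 to 3342 higher and 2595 to 2953 lower genes in the cold, and 5 to 262 upward and 8 to 557 downward interactions. A lone remaining array is assumed to vary like the other groups. Interactions numbered 43 upward and 54 downward without cold brown fat replicate 1, 557 downward without cold muscle replicate 1, 87 upward without cold muscle replicate 2, 5 and 11 without room temperature brown fat replicate 1, 7 and 8 without its replicate 2, 13 and 21 without room temperature muscle replicate 1, and 11 and 15 without its replicate 2. The replicate 1 pair gave 381 downward, and the authors' processed values 88 upward and 114 downward. A replicate block by title number gave 72 upward and 104 downward interactions. One by description number, which crosses the cold muscle arrays, gave 118 and 132. Whether same-numbered samples share mice is not given.

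Signs turned only for genes that did not pass with all arrays. Hcar1 was 0.11 with the authors' processed values and 0.90 on the replicate 1 pair (adjusted p = 0.0413), and -0.997 to 0.757 with 1 array left out. Cox8b was 0.054 on the replicate 1 pair, and -0.073 to 0.068 with 1 array left out. Fabp3 was -0.204 to 0.165 with 1 array left out. Slc2a4 was -0.302 with median scaling and -0.168 on the replicate 1 pair, and -0.12 to 0.13 with 1 array left out. Fbp1 was -0.030 with median scaling and -0.047 on the replicate 1 pair, and -0.0574 to 0.360 with 1 array left out. The cause was not tested.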

Other observations

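Several of the most even tissue differences, those with the smallest p-values, lay outside the lists and were picked after their values were seen. Prkab2, a regulatory subunit of AMP-activated protein kinase, was below background on both brown fat arrays, at 5.15 and 5.28, against 10.66 and 10.78 in muscle, at least 35.1-fold lower (limma, adjusted p = 1.03e-06). Prkag3, a regulatory subunit of the same kinase known from glycolytic muscle, was at least 17.5-fold lower in brown fat. Gdap1, a mitochondrial outer membrane protein, was at least 29.2-fold lower, and the transcription factor Tfcp2l1 differed by -5.35. In the other direction Mmd2 read 9.15 and 9.44 in brown fat, against 5.22 and 5.35 in muscle, at least 13.6-fold higher, and the RNA-binding protein gene Khdrbs3 (2.47) and the mitochondrial ribosomal gene Mrps5 (2.35) were higher by less.

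Of the brown fat set defined at room temperature, 12 genes did not pass in the cold: Arxes2, Adipoq, Ces1f, Cebpa, Hcar1, Ifi27l2a, Klb, Slc1a5, Slc7a10, Tmem45b, Ucp1 and Vat1l. Slc7a10, an amino acid carrier of adipocytes, read 6.52 and 6.78 in brown fat, against 6.58 and 9.07 in muscle. Ifi27l2a, an interferon-inducible gene, read 12.13 and 12.21 in brown fat, against 11.54 and 13.08 in muscle. For both genes muscle replicate 2 was above both brown fat arrays.

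Probes of 1 gene did not always give the same difference. Cyp2b10 was higher in brown fat by 5.05 with the probe used and by 0.57 with another, and Acot2 by 1.84 and, without passing, 0.27. Egfl7 was higher by 1.29 and 1.35 with 2 probes, while 1 more gave -0.18.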
